A study of Homo sapiens with 9 samples.

Results

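Cytosolic ribosomal proteins build, with ribosomal RNA, the small and the large subunit of the ribosome that translates the messenger RNAs of the cell. Their genes were taken by name: 86 protein-coding entries of the 58735 genes in the count table carry an RPL or RPS symbol or are RPSA, RPLP0, RPLP1 or RPLP2, without the RPS6K kinases. Of these, 34 name the small subunit and 52 the large subunit, and 9 are paralogs of another member (RPL22L1, RPS27L, RPL39L, RPL26L1, RPL7L1, RPL3L, RPL10L, RPS4Y1 and RPS4Y2). Messenger RNA was sequenced from Huh-7 cells, an established human hepatoma line, in 3 groups with 3 libraries each. Control cells were wild-type Huh-7. Ako-3 is 1 APOB knockout clone, made with Cas9 protein and guide RNAs to an exon of APOB and grown out by limiting dilution. Mko-3 is 1 MTTP knockout clone, made earlier. All groups were kept overnight in serum-free medium before RNA was isolated, and as each knockout is 1 clone, an effect of the deletion and of the clone cannot be told apart. The comparisons ask how the transcriptome differs once apoB, the structural protein of very low density lipoproteins, or MTP, the transfer protein that loads it with lipid, is lost.

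In hepatocytes as in other cells, ribosomal proteins are made in matched amounts and assembled on ribosomal RNA in the nucleolus. Their messenger RNAs are abundant and typically begin with a 5′ terminal oligopyrimidine (TOP) tract, a cytosine followed by a run of pyrimidines, through which LARP1 and mTOR control their translation and stability. Several members also act outside the ribosome: RPL5 and RPL11 bind MDM2, and RPS27L and RPL22L1 are paralogs that can stand in for RPS27 and RPL22.

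The tract is shown first because it is the sequence feature most members share. The sequence around the annotated start was available in RefSeq (GRCh38.p14) for 69 of the 86 members, as 10 bases before the start and 20 from it. A tract was counted where the start itself was a C followed by at least 4 more C or T, read in the direction of the RNA. By this rule 44 of 69 members (63.8%) began with a tract, against 1104 of the 27305 genes in the RefSeq table (4.04%) and 5 of 69 mitochondrial ribosomal protein genes (7.25%). Within 10 bases of the start on either side, the same letters were found in 82.6% of the members and in 33.3% of all genes. Below, the tract is in capitals. The first lines show members whose counts were lower in Mko-3, and the rest show pairs of a parent gene and its paralog and members that were higher in both knockouts. The lines are a selection. Of 23 tested members without a tract at the start, 8 were lower in Mko-3 than in the controls, among them RPL15 and RPL32, which are not shown.
RPL28 (chr19:55385922-55385951, + strand): cctcgccttcCTCTTTCCgtctcaggtcgc
RPS19 (chr19:41860245-41860274, + strand): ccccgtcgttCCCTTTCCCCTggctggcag
RPS16 (chr19:39435930-39435959, - strand): ccctagctttCCTTTTCCggttgcggcgcc
RPL18 (chr19:48619159-48619188, - strand): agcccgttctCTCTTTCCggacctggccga
RPS3A (chr4:151099618-151099647, + strand): cccacttccgCCCTTTTggctctctgacca
RPL22 (chr1:6199576-6199605, - strand): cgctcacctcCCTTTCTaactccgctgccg
RPL22L1 (chr3:170870176-170870205, - strand): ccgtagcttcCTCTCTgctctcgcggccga
RPS27 (chr1:153990752-153990781, + strand): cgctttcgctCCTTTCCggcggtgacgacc
RPS27L (chr15:63157458-63157487, - strand): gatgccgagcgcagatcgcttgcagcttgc
RPL26 (chr17:8383174-8383203, - strand): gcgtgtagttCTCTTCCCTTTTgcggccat
RPL26L1 (chr5:172958719-172958748, + strand): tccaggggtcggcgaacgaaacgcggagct
RPL7L1 (chr6:42879606-42879635, + strand): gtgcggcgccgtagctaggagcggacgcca
RPS26 (chr12:56041908-56041937, + strand): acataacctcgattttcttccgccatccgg
Of the 7 paralogs with a sequence, RPL22L1 and RPS4Y1 began with a tract, whereas RPS27L, RPL26L1 and RPL7L1 did not. Of the members without paralogs, 42 of 62 (67.7%) did. RPS26 had no tract at the annotated start but held one within 10 bases of it. A match of letters is a description of the annotated start, and the start used in these cells was not measured.

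The libraries held between 14638727 and 20179760 counts on genes, and 82 of the 86 members had enough counts to be tested in every comparison. RPL3L and RPL10L had too few, and RPS4Y1 and RPS4Y2 were at 0 counts in every library. In the knockouts the targeted genes were lower: APOB fell from 2688 to 3878 CPM (counts scaled to library size with factors from the trimmed mean of M values, TMM) in the controls to 1260 to 1422 in Ako-3, and MTTP from 604 to 664 to 83.0 to 90.8 in Mko-3. All 9 hepatocyte markers were expressed in every group, with a summed FPKM (fragments per kilobase of gene length and library size) of 5137 to 5304 in the controls, 6105 to 6386 in Ako-3 and 5068 to 5309 in Mko-3, whereas the fibroblast markers summed to at most 1.25. The endothelial markers, mostly PECAM1, summed to 9.86 to 11.3 FPKM in the controls, 13.5 to 14.6 in Ako-3 and 7.30 to 7.97 in Mko-3, and the leukocyte markers, mostly CD14, to 2.67 to 3.67, 5.15 to 5.79 and 3.22 to 4.30. PTPRC and CD3E, which define leukocytes and T cells, had no counts in the controls and a mean of at most 0.0569 CPM in the knockouts, and the part of these markers in the results was not tested. Control replicate 1 stood apart for the members: it held the highest CPM of the 3 controls for 67 of the 82 tested. The median coefficient of variation of the members between libraries was 7.71% in the controls, 2.99% in Ako-3 and 2.26% in Mko-3. The libraries of a group are labelled biological replicates, and p-values measure the spread between these samples of 1 line or clone.

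Ribosomal protein messages took a smaller share of all gene counts in the knockout clones. The share was 4.38%, 3.96% and 3.96% in the control libraries, 3.65%, 3.76% and 3.79% in Ako-3, and 3.44%, 3.44% and 3.46% in Mko-3. The groups did not overlap, and Mko-3 was lowest. The means were 4.10% ± 0.24 (SD, n = 3), 3.73% ± 0.075 and 3.44% ± 0.011, and without control replicate 1 the control mean was 3.96%. Small-subunit genes took 1.39% in the controls, 1.31% in Ako-3 and 1.19% in Mko-3, and large-subunit genes 2.71%, 2.42% and 2.25%. Mitochondrial transcripts took 7.06% to 7.40% of the counts in Ako-3 and 5.52% to 6.17% in the other groups, and of the counts on nuclear protein-coding genes alone the members took 4.44%, 4.10% and 3.72%. The share is a sum over the members and was given no test, and the part of the mitochondrial and hepatocyte marker levels in it was not tested. The share is taken of library totals. On that scale the median log2 fold change against the controls was -0.13 for the members and -0.10 for all genes in Ako-3. In Mko-3 these medians were -0.23 and -0.08. Fewer cells of a type, less ribosomal protein RNA per cell and more of other RNA cannot be told apart in such a share.

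**Figure D1:**
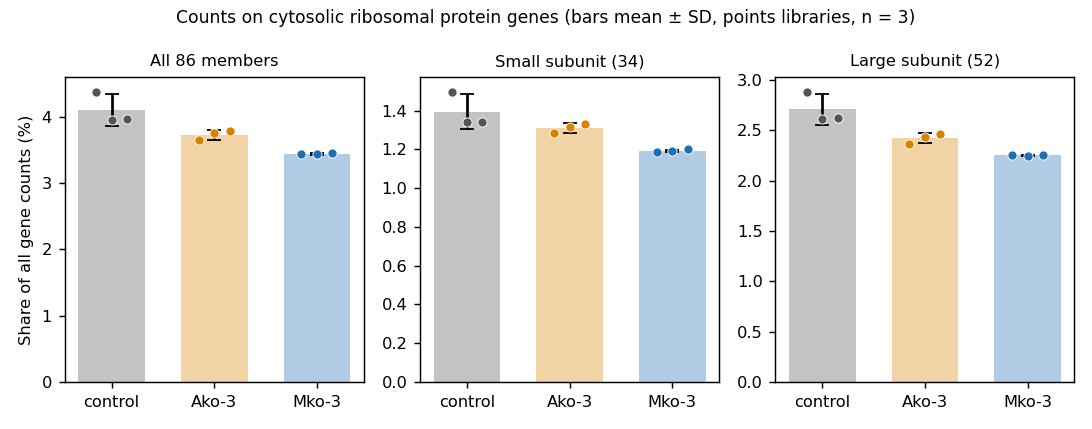
Percent of all gene counts (vertical axis) on ribosomal protein genes in each group, for all 86 members, the 34 of the small subunit and the 52 of the large subunit. Points are libraries, bars means and error bars SD (n = 3). For all members, the controls sit at 3.96% to 4.38%, Ako-3 at 3.65% to 3.79% and Mko-3 at 3.44% to 3.46%.

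Levels ranged widely between members. Per length, RPS12 was highest at a mean of 805 FPKM over the 9 libraries, followed by RPS2 at 636, RPL41 at 546, RPL8 at 539 and RPLP0, the base of the ribosomal stalk, at 448. Within the controls RPS2 (633 ± 50.3, SD) and RPL8 (641 ± 51.4) did not differ beyond their spread. In all, 75 members lay over 10 FPKM and 44 over 100, and the 10 highest held 38.0% of the summed FPKM of the members. At the low end, RPS10 was at 0.441, RPL36A at 0.903, RPL17 at 4.33 and RPL26 at 5.48 FPKM. RPS10, RPL36A and RPL17 lie inside read-through genes (RPS10-NUDT3, RPL36A-HNRNPH2 and RPL17-C18orf32), and 36 members overlap another protein-coding gene. How reads shared between such genes were counted is not given in the sources used here, so these low levels are uncertain. Among members named below the overlaps include RPS27L with LACTB, RPL6 with PTPN11, RPL28 with UBE2S, RPL15 with NKIRAS1, RPL18 with SPHK2, RPL32 with CAND2 and RPS3A with SH3D19, and the sources used here do not say whether strand was used to tell such reads apart. Processed pseudogenes are a further place where reads can go: 1149 pseudogene entries took 4.93% of members' and pseudogenes' counts in the controls, 4.96% in Ako-3 and 4.95% in Mko-3. For 66 members the pseudogene part was under 5%, and for RPS10, RPS28, RPL9, RPL39, RPL26 and RPS2 it was at least 20%.

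Between Ako-3 and control cells, few members differed, and those that did moved in both directions. At an adjusted p of at most 0.05 (edgeR quasi-likelihood test, Benjamini-Hochberg over 15787 genes), 7 of 82 members were higher and 14 lower, while 25.5% of all genes were called higher and 24.4% lower. In the median the members stood at a log2 fold change of -0.03, against -0.01 over all genes. Of the members, 10 lay above and 19 below the controls without overlap, where the background was 29.7% and 28.1%. The members' share was below the background in both directions. None reached a log2 fold change of 1 as well, with edgeR or with DESeq2, where 3.52% of all genes were higher and 5.0% lower by both thresholds, although 26 members had an unadjusted p under 0.05. The count of lower members changed when 1 library was left out. It was 8 without control replicate 1, with a median of +0.03, and 25 without control replicate 2. Whichever Ako-3 library was left out, it was 8 as well, at medians of -0.04 to 0.00. Scaled by library totals alone, 4 members were higher and 30 lower, but then the median of all genes moved by -0.09.

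Between Mko-3 and control cells, lower members were more numerous. Of the 82, 38 were called lower, well above the background of 27.1%, and 8 higher, below the background of 26.9%, and 45 members lay below the controls without overlap, against 29.8% of all genes. The median log2 fold change was -0.16, beside -0.01 for all genes. The 38 had log2 fold changes from -0.59 to -0.15, and 15 of them fell by over 20%. Again none reached a log2 fold change of 1 with either tool (background 3.82% higher and 7.22% lower), while 57 had an unadjusted p under 0.05. Without control replicate 1, 32 members were lower, 7 were higher and the median was -0.09. With library totals alone 56 were lower and 5 higher. Both subunits were involved, with 14 of 32 small-subunit and 24 of 50 large-subunit members lower.

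Mko-3 and Ako-3 were also compared directly, without the control libraries. Here 44 members were lower and 4 higher in Mko-3, with a background of 20.6% lower and 21.1% higher, and 43 lay below Ako-3 without overlap (background 24.1%). The median was -0.10, against 0.00 over all genes. Among small-subunit members 19 of 32 were lower, and among large-subunit members 25 of 50. None reached a log2 fold change of 1 with edgeR or DESeq2 (background 2.26% higher and 3.47% lower), and 55 had an unadjusted p under 0.05. These differences are small, and the standard error of a member was 0.04 in the median here and 0.06 in the comparisons with the control. When all 9 libraries shared 1 fit, 23 members were lower and 1 higher at the same median of -0.10.

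**Figure D2:**
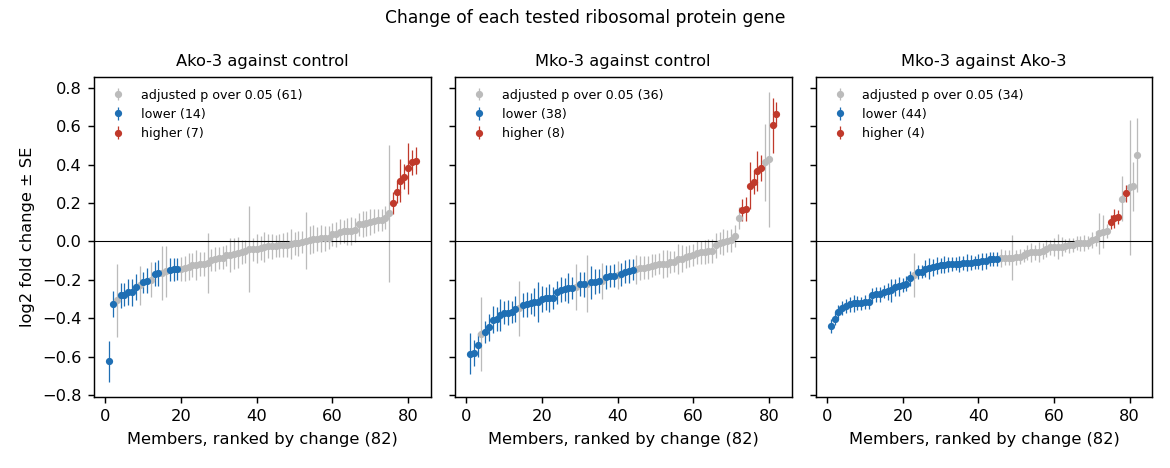
log2 fold change ± SE (vertical axis) of the 82 tested members, ranked within each comparison (horizontal axis). Blue points were lower and red points higher at an adjusted p of at most 0.05, and grey points were neither: 14 lower and 7 higher in Ako-3 against control, 38 and 8 in Mko-3 against control, 44 and 4 in Mko-3 against Ako-3.

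Across the comparisons, which share their libraries, 14 members were called lower in both knockouts, 6 higher in both, none in opposite directions, and 35 in neither. A further 24 were called lower in Mko-3 but not in Ako-3, and 18 of these were also lower than Ako-3 in the direct test. The same joint calls were not counted over all genes, so these counts have no background and only describe the members. For comparison, the 2261 other genes of at least 100 CPM had median log2 fold changes of 0.10 in each knockout and 0.01 between them. The shortest protein-coding genes tested, up to about 3285 bases of exon, had medians of 0.07, 0.03 and -0.03 in the same order.

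Members higher in both knockouts included 3 of the paralogs. RPS27L, the paralog of RPS27 (chr15:63125872-63158021, hg38), stood at 102, 96.3 and 103 CPM in the controls, 136, 133 and 136 in Ako-3 and 157, 163 and 162 in Mko-3. The 3 groups did not overlap, and Mko-3 was highest. The log2 fold change was 0.41 ± 0.06 (SE) in Ako-3 (edgeR adjusted p = 1.93e-05), 0.66 ± 0.06 in Mko-3 (adjusted p = 1.60e-08) and 0.25 ± 0.05 between them (adjusted p = 4.70e-06). RPL7L1, the paralog of RPL7, was at 98.7, 99.2 and 101 CPM in the controls, 128, 121 and 130.3 in Ako-3 and 121, 129 and 123 in Mko-3. Every knockout library lay above every control, and the knockouts overlapped each other. It rose by 0.34 ± 0.06 in Ako-3 (edgeR adjusted p = 1.77e-04) and by 0.31 ± 0.06 in Mko-3 (adjusted p = 2.82e-04) on the log2 scale. RPL26L1, a close copy of RPL26, was at 20.8, 18.3 and 16.7 CPM in the controls, 20.4, 23.3 and 26.3 in Ako-3 and 23.1, 23.3 and 26.4 in Mko-3. Ako-3 overlapped the controls and Mko-3 did not, and the log2 fold changes were 0.32 ± 0.11 (edgeR adjusted p = 0.0232) and 0.37 ± 0.10 (adjusted p = 0.00511). The first of these calls was lost under at least 1 alternative setting.

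RPS26, which lies at the exit of the messenger RNA channel of the small subunit, was at 135, 139.7 and 118 CPM in the controls, 168, 173 and 186 in Ako-3 and 167, 172 and 175 in Mko-3. Both knockouts were above all controls, at log2 fold changes of 0.42 ± 0.07 (edgeR adjusted p = 4.92e-05) and 0.38 ± 0.07 (adjusted p = 6.75e-05), and they did not differ from each other beyond the spread (-0.04 ± 0.05, adjusted p = 0.528). RPL6, of the large subunit, was at 652, 628 and 611 CPM in the controls, 716, 781 and 774 in Ako-3 and 703, 729 and 703 in Mko-3. No knockout library overlapped the controls. It rose by 0.26 ± 0.06 in Ako-3 (edgeR adjusted p = 0.00112) and by 0.16 ± 0.06 in Mko-3 (adjusted p = 0.0171), the latter call being lost under at least 1 alternative setting.

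RPL22L1 had the largest fall of the tested members in Ako-3, and in Mko-3 its fall did not differ from that of RPL28 beyond their standard errors. This paralog of RPL22 (chr3:170864875-170870483) was at 23.9, 20.6 and 20.5 CPM in the controls, 15.4, 13.8 and 13.3 in Ako-3 and 14.3, 13.7 and 15.7 in Mko-3. All 6 knockout libraries were below the controls and overlapped each other. It fell by 35.2% in Ako-3 (log2 -0.63 ± 0.11, edgeR adjusted p = 7.07e-05) and by 33.4% in Mko-3 (log2 -0.59 ± 0.11, adjusted p = 8.64e-05). Its parent RPL22, an RNA-binding protein of the large subunit, was at 92.6, 95.5 and 96.3 CPM in the controls, 94.9, 103 and 98.3 in Ako-3 and 105, 112 and 106 in Mko-3. RPL22 was higher in Mko-3 than in the controls (log2 0.17 ± 0.06, edgeR adjusted p = 0.03) and than in Ako-3 (0.12 ± 0.05, adjusted p = 0.0489), calls that were lost under at least 1 alternative setting each, and the Ako-3 value was 0.05 ± 0.07 (adjusted p = 0.555).

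Set against its parent within a library, which needs no scaling between libraries, RPL22L1 had 25.8, 21.6 and 21.3 counts per 100 of RPL22 in the controls, 16.2, 13.4 and 13.6 in Ako-3 and 13.6, 12.3 and 14.9 in Mko-3. RPS27L had 27.3, 35.7 and 32.3 counts per 100 of RPS27 in the controls, 47.9, 47.8 and 47.8 in Ako-3 and 56.6, 59.7 and 55.4 in Mko-3. In both pairs the controls did not overlap either knockout. RPL7L1 had 27.1, 30.8 and 30.8 counts per 100 of RPL7 in the controls, 40.2, 35.2 and 37.7 in Ako-3 and 35.9, 39.9 and 37.5 in Mko-3. RPL26L1 and RPL26 also separated the controls (104.5 to 141 counts per 100) from Ako-3 (147 to 187) and Mko-3 (183 to 191), although RPL26 is among the members with many pseudogene counts. RPL26 itself had only 182 to 310 counts a library and overlaps the coding gene AC135178.2, so its level and this ratio are uncertain. RPL39L, the paralog of RPL39, had 24.0 to 27.8 counts per 100 of RPL39 in the controls, 23.6 to 25.1 in Ako-3 and 25.0 to 26.9 in Mko-3, with all groups overlapping. Per length, RPL22L1 was at 46.1, 29.0 and 27.4 FPKM per 100 of RPL22 in the controls, Ako-3 and Mko-3, and RPL7L1 at 11.0, 14.0 and 14.1 per 100 of RPL7. With 3 libraries against 3, a 2-sided exact permutation test cannot go below p = 0.1, and every pair whose groups did not overlap gave p = 0.1 in that exact test (adjusted p = 0.15 over 18 tests).

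**Figure D3:**
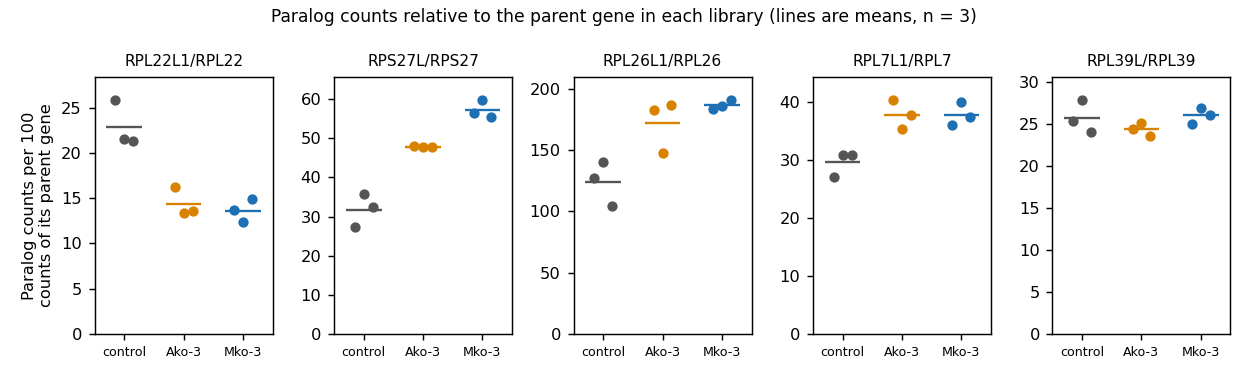
Counts of a paralog per 100 counts of its parent gene (vertical axes, from 0) in each library, by group, with lines at the means (n = 3). RPL22L1 lies lower in both knockouts than in the controls, RPS27L, RPL26L1 and RPL7L1 lie higher, and the RPL39L groups overlap.

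RPL8, RPL28 and RPL37, large-subunit members without a paralog, were among the largest falls in both knockouts. RPL8, which lies near the peptidyl transferase centre, was at 1522, 1372 and 1304 CPM in the controls, 1137, 1163 and 1182 in Ako-3 and 972, 948 and 988 in Mko-3. The 3 groups were in that order without overlap. The log2 fold change was -0.28 ± 0.06 in Ako-3 (edgeR adjusted p = 8.20e-04), -0.54 ± 0.06 in Mko-3 (adjusted p = 1.94e-07) and -0.26 ± 0.03 between them (adjusted p = 1.66e-09). RPL28 was at 603, 524 and 490.1 CPM in the controls, 447, 452 and 453 in Ako-3 and 354, 361 and 372 in Mko-3. It showed the same order without overlap, and it fell by 16.8% in Ako-3 (edgeR adjusted p = 0.00271) and by 33.2% in Mko-3 (adjusted p = 3.10e-07). RPL37 was at 492, 396 and 439 CPM in the controls, 359.8, 356 and 349 in Ako-3 and 329.9, 312 and 339 in Mko-3. The groups were again in that order without overlap, at -0.33 ± 0.07 in Ako-3 (edgeR adjusted p = 5.72e-04) and -0.45 ± 0.07 in Mko-3 (adjusted p = 1.72e-05) on the log2 scale against the controls. RPL3, another protein near the peptidyl transferase centre, had log2 fold changes of -0.21 ± 0.06 in Ako-3 (edgeR adjusted p = 0.00306) and -0.32 ± 0.05 in Mko-3 (adjusted p = 3.18e-05), and is named here after its values were seen.

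Small-subunit members lower in both knockouts included RPS13 and RPS3A. RPS13 was at 197, 162 and 168 CPM in the controls, 148, 149 and 144 in Ako-3 and 139, 142 and 152 in Mko-3. Both knockouts lay below the controls by similar log2 fold changes, -0.27 ± 0.07 (edgeR adjusted p = 0.00366) and -0.30 ± 0.07 (adjusted p = 0.00149). RPS3A was at 448, 425 and 424 CPM in the controls, 376, 402 and 402 in Ako-3 and 317, 317 and 309 in Mko-3. Its fall in Ako-3 was near the threshold (-0.14 ± 0.06, edgeR adjusted p = 0.0481) and was lost under at least 1 alternative setting, while it fell by 27.9% in Mko-3 (adjusted p = 5.15e-07) and by 20.3% from Ako-3 to Mko-3 (adjusted p = 8.98e-11).

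Among the largest falls between the knockouts, those of RPL15, RPS19, RPL32 and RPL18 were of members that the test did not call in Ako-3 against the controls. RPL15, mutated in some cases of Diamond-Blackfan anemia (chr3:23916545-23924374), was at 1189, 1084 and 1087 CPM in the controls, 1209.9, 1208 and 1229 in Ako-3 and 899, 939 and 925 in Mko-3. Here Ako-3 lay above all controls without passing the test (log2 0.11 ± 0.06, edgeR adjusted p = 0.119), and Mko-3 fell by 24.4% from Ako-3 (adjusted p = 1.42e-16). RPS19, the gene most often mutated in that anemia, was at 631, 554 and 533 CPM in the controls, 572, 595 and 582 in Ako-3 and 452, 427 and 477 in Mko-3. It fell by 22.5% from Ako-3 to Mko-3 (edgeR adjusted p = 5.89e-13), and Mko-3 did not overlap the other groups.

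RPL32 was at 766, 693 and 717 CPM in the controls, 748, 782 and 741 in Ako-3 and 580.5, 594 and 611 in Mko-3. RPL18 was at 477, 458 and 423 CPM in the controls, 483, 481 and 488 in Ako-3 and 380.1, 373 and 398 in Mko-3. Mko-3 was lowest for both, at log2 fold changes against Ako-3 of -0.35 ± 0.04 (edgeR adjusted p = 5.13e-13) and -0.34 ± 0.04 (adjusted p = 1.02e-11). RPS16 was at 622, 514 and 509 CPM in the controls, 491, 512 and 507 in Ako-3 and 424, 401 and 424 in Mko-3. It fell by 24.6% in Mko-3 against the controls (edgeR adjusted p = 4.97e-05), and its Ako-3 value was -0.13 ± 0.07 (adjusted p = 0.125), with overlap.

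RPSA, a small-subunit protein also known as the laminin receptor precursor, was at 1433, 1392 and 1298 CPM in the controls, 1553, 1576 and 1639 in Ako-3 and 1254, 1294 and 1272 in Mko-3. Ako-3 was above and Mko-3 below all controls. RPSA rose by 0.20 ± 0.06 in Ako-3 (edgeR adjusted p = 0.0063, lost under at least 1 alternative setting), had -0.12 ± 0.06 in Mko-3 (adjusted p = 0.0752), and was lower in Mko-3 than in Ako-3 (log2 -0.32 ± 0.03, adjusted p = 7.05e-13).

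**Figure D4:**
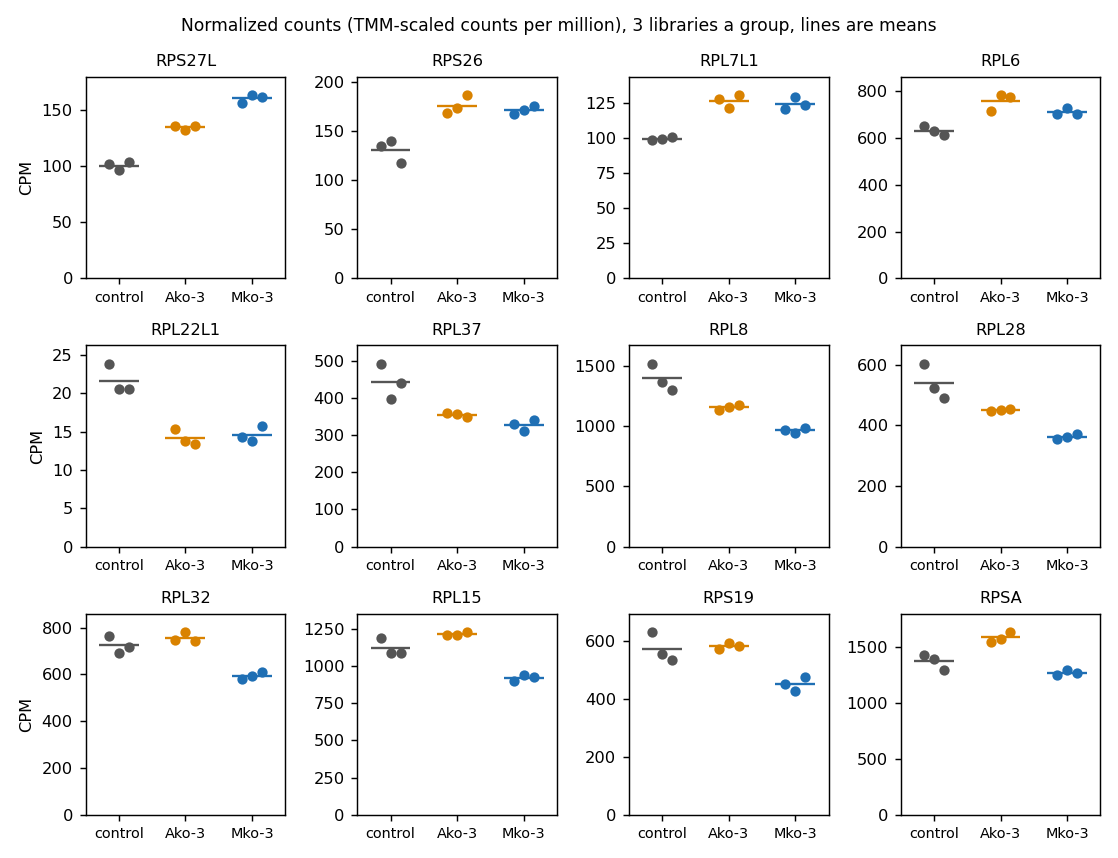
CPM after TMM scaling (vertical axes, from 0) of 12 members in the 9 libraries, with lines at group means. RPS27L, RPS26, RPL7L1 and RPL6 lie above the controls in both knockouts, RPL22L1, RPL37, RPL8 and RPL28 lie below, and RPL32, RPL15, RPS19 and RPSA separate Mko-3 from Ako-3.

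Members known for roles of their own had small log2 values in Ako-3. RPS6, the S6 kinase substrate, was at 351, 344 and 351 CPM in the controls, 321, 336 and 332 in Ako-3 and 330.4, 338 and 327 in Mko-3. Both knockouts lay below all controls without passing the test, at -0.09 ± 0.06 in Ako-3 (edgeR adjusted p = 0.214) and -0.08 ± 0.06 in Mko-3 (adjusted p = 0.23). RPL5 and RPL11, which hold back MDM2 when ribosome assembly is disturbed, had log2 values between -0.02 and 0.05 in the 3 comparisons, with standard errors of 0.04 to 0.06 and overlapping groups. Of the stalk proteins, which recruit the translation GTPases, RPLP1 and RPLP2 were lower in Mko-3 than in the controls (-0.18 ± 0.06, edgeR adjusted p = 0.0152, and -0.31 ± 0.07, adjusted p = 8.93e-04). Both were lower than in Ako-3 as well, the call of RPLP1 against the controls was lost under at least 1 alternative setting, and RPLP0 had -0.11 ± 0.06 in Mko-3 (edgeR adjusted p = 0.12). RPS12, the member with the highest FPKM, was at 639, 574 and 589.9 CPM in the controls, 598, 633 and 607 in Ako-3 and 652, 653 and 672 in Mko-3. It was higher in Mko-3 than in Ako-3 (0.10 ± 0.04, edgeR adjusted p = 0.0185, lost under at least 1 alternative setting). RPL17 had a log2 value of 0.29 ± 0.12 in Mko-3 near the threshold (edgeR adjusted p = 0.0495), lost under at least 1 alternative setting, from 9.74, 9.58 and 10.7 CPM in the controls to 11.9, 13.0 and 12.1 in Mko-3, inside a read-through gene.

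The members lie on 22 chromosomes, 12 of them on chromosome 19. All 12 members on chromosome 19 were lower in Mko-3 than in Ako-3, with a median log2 fold change of -0.30, while 32 of the 70 elsewhere were lower and 4 higher, with a median of -0.08. The other 1027 genes tested on chromosome 19 had a median of -0.10 and 33.0% of them were lower, against 20.6% over all genes. Against the controls, 9 of the 12 on chromosome 19 were lower in Mko-3 at a median of -0.35, and 29 of the 70 elsewhere were lower at a median of -0.14. There 33.5% of the other genes on chromosome 19 were lower, at a median of -0.08, and 27.1% of all genes. In Ako-3 against the controls, 1 of the 12 was lower and the median was -0.01. Of the other genes on chromosome 19, 25.97% were lower in Ako-3, at a median of 0.0036, and 24.4% of all genes. For RPS19 the other genes within 5 Mb had a median of -0.20 (196 genes) beside its own -0.37 between the knockouts. For RPL28 they had 0.02 (165 genes) beside -0.32. For RPL15 on chromosome 3 they had -0.24 (23 genes) beside -0.40, and for RPL32 -0.22 (82 genes) beside -0.35. The part of chromosome content in these differences was not tested.

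**Figure D5:**
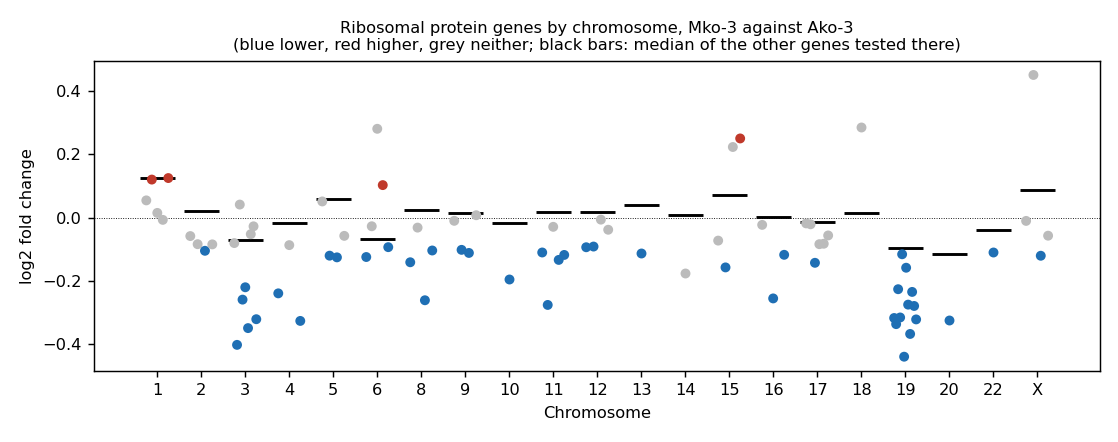
log2 fold change of Mko-3 against Ako-3 (vertical axis) for each of the 82 tested members, by chromosome (horizontal axis). Blue points were lower, red higher and grey neither, and black bars give the median of the other genes tested on the chromosome. On chromosome 19 all 12 members are blue and lie below the bar at -0.10.

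Members were also counted by their annotated start. In Mko-3 against control, 22 of 43 members with a tract at the start were lower and 1 higher, of 23 without a tract 8 were lower and 6 higher, and of 16 with no sequence 8 were lower and 1 higher, where 27.1% of all genes were lower and 26.9% higher. The members without a tract at the start include some with one within 10 bases, such as RPS26. They also include the paralogs RPS27L, RPL26L1 and RPL7L1, which were among the 6 higher. The classes thus differ in more than the tract. In Ako-3 against control the tract members had 8 lower and 1 higher, and those without a tract had 3 lower and 5 higher. Those with no sequence had 3 lower and 1 higher, where 24.4% of all genes were lower and 25.5% higher. Between the knockouts 26 of 43 tract members, 8 of 23 without a tract and 10 of 16 with no sequence were lower, against 20.6% of all genes. The median log2 fold changes in Mko-3 against control were -0.18 with a tract, -0.13 without and -0.12 with no sequence, and the difference was not tested. A list of other genes known for TOP messages, mainly translation factors, of which 8 of the 11 with a sequence held the tract at the start, had 4 of 16 higher and 9 lower in Mko-3 at a median of -0.28, and 3 higher and 7 lower in Ako-3 at -0.09. Between the knockouts 3 of these 16 genes were higher and 4 lower in Mko-3, at a median of -0.02, against 21.1% and 20.6% of all genes. The largest log2 values in the list against the controls were 0.47 in Ako-3 and 0.64 in Mko-3. Of the lower genes, EEF1A1, the elongation factor that delivers aminoacyl-tRNA, went from a mean of 7112 CPM in the controls to 6654 in Ako-3 and 5066 in Mko-3. Its log2 fold change in Mko-3 was -0.50 ± 0.05 (edgeR adjusted p = 6.22e-08). PABPC1, the cytoplasmic poly(A) binding protein, fell by 0.34 in Ako-3 and by 0.50 in Mko-3 on the log2 scale (edgeR adjusted p = 3.39e-05 and 1.12e-07).

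Of the regulators of TOP messages, 4 of 15 were higher and 5 lower in Ako-3, and 4 higher and 3 lower in Mko-3, shares near the 25.5% and 24.4% of all genes in Ako-3 and the 26.9% and 27.1% in Mko-3. EIF4EBP1, a translation repressor that mTOR phosphorylates, fell by 0.63 in Ako-3 and by 0.67 in Mko-3 on the log2 scale (edgeR adjusted p = 5.14e-07 and 7.62e-08). Between the knockouts 3 of the 15 were higher and 2 lower in Mko-3, again near the 21.1% and 20.6% of all genes. Among the 3, LARP1 was higher in Mko-3 than in Ako-3 (0.25 ± 0.04, edgeR adjusted p = 2.41e-06), as was MTOR (0.25 ± 0.05, adjusted p = 4.69e-05).

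Ribosomal protein genes whose names escape the rule were looked at beside the members. RPL36AL, the intronless copy of RPL36A, rose from a mean of 31.3 CPM in the controls to 64.4 in Ako-3 and 63.4 in Mko-3 (log2 1.03 ± 0.08 and 1.01 ± 0.07, edgeR adjusted p = 1.58e-09 and 4.37e-10). FAU, which encodes a ubiquitin-like protein fused to a small-subunit protein, rose in Ako-3 (0.23 ± 0.07, edgeR adjusted p = 0.0119). RACK1, a scaffold on the small subunit, fell by 0.17 in Ako-3 and by 0.18 in Mko-3 (edgeR adjusted p = 0.0235 and 0.0145).

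Genes for making ribosomes were counted by the same test, where 25.5% of all genes were higher and 24.4% lower in Ako-3, 26.9% and 27.1% in Mko-3, and 21.1% and 20.6% in Mko-3 against Ako-3. Of 76 ribosomal RNA processing and assembly factors, 39 were higher and 7 lower in Ako-3 (median 0.24), 50 higher and 8 lower in Mko-3 (median 0.31), and 31 higher and 3 lower in Mko-3 against Ako-3 (median 0.13). In Mko-3, RRS1, which brings in proteins of the large subunit, rose from a mean of 17.2 to 38.5 CPM (log2 1.15 ± 0.10, edgeR adjusted p = 4.32e-09), and EBNA1BP2 from 41.3 to 69.4. RSL24D1, a factor of large-subunit maturation, fell by 0.72 in Ako-3 and by 0.64 in Mko-3 (edgeR adjusted p = 2.27e-08 and 1e-07). Of 8 proteins of the small nucleolar ribonucleoproteins that modify ribosomal RNA, 4 were higher in Ako-3 and 6 in Mko-3, and none lower. NOP56 rose from 198 to 311 and 348 CPM. Of 16 genes of RNA polymerase I transcription, 5 were higher and 5 lower in Ako-3, and 5 higher and 4 lower in Mko-3. These shares are near those of all genes. UBTF was at log2 1.02 ± 0.08 in Ako-3 and 0.98 ± 0.07 in Mko-3 (edgeR adjusted p = 1.37e-09 and 3.57e-10). TAF1D was at -0.57 and -0.43 (edgeR adjusted p = 7.59e-06 and 1.30e-04), and POLR1D at -0.38 and -0.51 (edgeR adjusted p = 0.00039 and 1.05e-05). Of 77 mitochondrial ribosomal proteins, 35 were higher and 2 lower in Ako-3 (median 0.19), and 29 higher and 6 lower in Mko-3 (median 0.17).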

How the data were processed

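RNA-seq was measured in 3 groups of 3 libraries. Per the labels and the study's methods, the authors aligned reads with HISAT2 2.0.5 to hg38, counted reads per gene with featureCounts 1.5.0-p3 and deposited raw counts, and they deposited FPKM values, which are those counts divided by gene length and a library divisor. The labels name a second, older build, and the strand and multimapping settings are not given in the sources used here. Counts were tested with edgeR 4.0.16 in R 4.3.3 (TMM, filterByExpr with a minimum count of 10, robust quasi-likelihood fit) on the 6 libraries of each comparison, with Benjamini-Hochberg adjustment over all genes and calls at an adjusted p of at most 0.05. The code was tested on simulated data. Alternatives used DESeq2 1.42.0, other scaling, filters and fits, and left out each library in turn. FPKM served for levels between genes, marker sums and an alternative share, and for no test across genes.

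Named in the text were, per comparison, the 6 largest rises and falls among called members, the 5 highest and lowest members in FPKM, paralogs with their parents, RPSA, RPLP0, RPLP1, RPLP2, RPS6, RPL5, RPL11, genes outside the name rule, and genes of smallest adjusted p in other lists. Some members and genes that this rule names are not reported here. Members and lists were chosen with earlier results of these data known. Depth was 14638727 to 20179760 counts a library.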

Additional observations from a re-analysis of the deposited data

How the results depend on the processing

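No call of a member reversed under any alternative run. Of the calls, 11 of 21 in Ako-3 against control, 31 of 46 in Mko-3 against control and 24 of 48 in Mko-3 against Ako-3 were kept under all of them. With library totals alone, 4 members were higher and 30 lower in Ako-3 (median log2 -0.13), and 5 were higher in Mko-3 (median -0.23). That scaling moved the median of all genes by -0.09 in Ako-3 and by -0.07 in Mko-3. With all 9 libraries in 1 fit, 1 member was higher and 23 lower in Mko-3 against Ako-3. Leaving out 1 library gave 5 to 10 higher and 8 to 25 lower members in Ako-3 (median -0.07 to 0.03, positive without control replicate 1), 5 to 8 higher and 27 to 51 lower in Mko-3 (median -0.19 to -0.0887), and 2 to 5 higher and 32 to 45 lower between them (median -0.11 to -0.09). The cause was not tested. Shares in the controls, Ako-3 and Mko-3 were 4.44%, 4.10% and 3.72% of nuclear protein-coding counts and 5.05%, 4.35% and 4.25% of summed FPKM, and with pseudogene entries 3.93% in Ako-3 and 3.62% in Mko-3. The log2 ratio differences that changed sign without 1 library had overlapping groups: RPL22L1 to RPL22 in Mko-3 against Ako-3 (-0.15 to 0.0085), RPL39L to RPL39 in Mko-3 against control (-0.0279 to 0.0773) and RPL7L1 to RPL7 in Mko-3 against Ako-3 (-0.0459 to 0.0498).

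Same-numbered libraries correlated at -0.26 to -0.17 between Ako-3 and control, -0.09 to 0.20 between Mko-3 and control and -0.09 to 0.15 between the knockouts. Differently numbered libraries reached 0.29 between Ako-3 and control and 0.15 between Mko-3 and control. With 3 libraries a group, these values cannot settle whether replicate numbers pair the samples. With a replicate block, 7 members were higher and 11 lower in Ako-3, 7 and 42 in Mko-3, and 5 and 45 between them. The depth and 3 libraries a group leave median standard errors of about 0.06 against the controls, and a call took a change well above that size. The smallest changes called in the main fits were those of RPS3A for Ako-3 (-0.14 ± 0.06) and RPL4 for Mko-3 (-0.15 ± 0.05). RPS24, at 0.12 ± 0.06 for Ako-3, was not called. Larger changes with a wide standard error were missed too, such as RPS29 for Mko-3 (-0.48 ± 0.19).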
